A study of Mus musculus with 8 samples.

Results

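The genes described here encode the proteasome of the mouse, followed in the ASZ001 basal cell carcinoma line. They were the entries whose symbol starts with Psma to Psmg followed by a digit, without the immunoproteasome genes Psmb8, Psmb9 and Psmb10. Of the 24883 gene entries with a usable symbol, 50 matched the symbol pattern and 47 were left without the immunoproteasome, of which 46 had at least 10 counts in at least 2 of the 8 libraries and were kept. The kept genes comprised 14 core subunits, 17 regulatory subunits and 15 others. The others were 4 assembly chaperones of the core, 3 of the regulatory particle, 5 activator genes, the inhibitor gene Psmf1, the testis form Psma8 and Psmc3ip. The last is matched by name only, since it encodes a meiotic recombination protein and no proteasome subunit. Just inside the expression limit were Psma8, with 12.5 to 111 counts in a library, and Psme2, with 26 to 60 counts. Just outside it was Psmb11, the thymus form of a beta subunit, with at most 2 counts.

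The 4 groups, of 2 bulk RNA-seq libraries each, were compared. The cells carried a doxycycline-inducible vector, and all of them received doxycycline for 24 h. Cells with the c-Fos vector were then given the EGFR family kinase inhibitor afatinib at 5 µM, the MEK inhibitor UO126 at 10 µM, or the vehicle DMSO, each for 6 h. The empty-vector cells had doxycycline alone by their labels, which name no vehicle, so in the comparison with them c-Fos and DMSO cannot be told apart. ASZ001 is 1 cell line, the sources used here do not name the species of the c-Fos sequence, and nothing says that the duplicates were separate cultures. The p-values therefore measure the spread between libraries, which may be technical. Libraries held between 17901974 and 23126049 counts. The Fos entry stood at 1107 and 1081 CPM (deposited counts scaled to a library of common size) with afatinib, 813 and 875 with UO126, 1163 and 1120 with DMSO, and 40.6 and 50.5 in empty-vector cells. The keratinocyte markers Krt5, Krt14 and Trp63 summed to 14209 to 14503 CPM with afatinib, 17437 to 18276 with UO126, 15804 to 16490 with DMSO, and 14355 to 14364 in empty-vector cells. The 6 fibroblast markers, of which Lum and Thy1 were at 0, summed to 7.06 to 7.10 CPM with afatinib, 9.20 to 10.6 with UO126, 8.11 to 9.03 with DMSO, and 4.76 to 5.10 in empty-vector cells. The 4 endothelial markers, with Kdr at 0, summed to 58.1 to 59.3 CPM with afatinib, 61.3 to 62.5 with UO126, 55.7 to 59.8 with DMSO, and 68.8 to 71.8 in empty-vector cells. The 4 melanocyte markers, with Tyr at 0, summed to 8.43 to 8.62 CPM with afatinib, 10.5 to 11.4 with UO126, 8.87 to 10.2 with DMSO, and 6.93 to 8.35 in empty-vector cells. The 4 leukocyte markers, with Tyrobp at 0, summed to at most 5.93 CPM. Keratinocyte markers were thus higher with DMSO than with afatinib or in empty-vector cells, as most subunit genes below were, and highest with UO126. The part of these marker levels in the results below was not tested. In bulk RNA, fewer cells of a kind and less RNA per cell cannot be told apart.

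The proteasome degrades proteins that carry ubiquitin chains. Its core is a stack of rings of alpha and beta subunits with the proteolytic sites on the inside, and its regulatory particle has a base of ATPases that unfold substrates and a lid that removes ubiquitin. Dedicated chaperones help to build both parts. In mammalian cells, subunit genes are known to be raised together through the transcription factor Nfe2l1, which acts with small Maf partners at antioxidant response elements when proteasome activity falls short. c-Fos, as part of AP-1, binds a related element.

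The stretches just before the start sites of proteasome genes are shown because the antioxidant response element can be read in some of them. RefSeq promoter sequences of build GRCm38.p6 matched 38 of the 46 genes. That build differs from the mm9 named for the deposited counts, so the coordinates below belong to the sequences alone. Within 60 bases before the start, the core of the antioxidant response element, TGANNNNGC on either strand, was read in 7 of the 38 genes, 18.4%, against 9.48% of the 27025 genes in the table. It was read in 3 of the 11 core genes with a promoter, 27.3%, and in 1 of the 14 regulatory genes, 7.14%. Within 250 bases the shares were 34.2% for the 38 genes and 35.1% for all genes. The 60 bases before the start follow for the 6 of the 7 genes that belong to the proteasome, chosen after the search, with the match in capitals.
Psmb3, beta ring, chr11:97703374-97703433, plus strand: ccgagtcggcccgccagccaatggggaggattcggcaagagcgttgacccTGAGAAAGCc
Psmb5, catalytic beta subunit, chr14:54617996-54618055, minus strand: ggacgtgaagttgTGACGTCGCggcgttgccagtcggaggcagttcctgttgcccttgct
Psmb6, catalytic beta subunit, chr11:70525297-70525356, plus strand: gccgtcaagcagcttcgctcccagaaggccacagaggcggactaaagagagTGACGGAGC
Psmd12, lid, chr11:107479468-107479527, plus strand: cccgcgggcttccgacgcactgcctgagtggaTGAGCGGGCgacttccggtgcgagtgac
Psmd9, chaperone of the base, chr5:123228130-123228189, plus strand: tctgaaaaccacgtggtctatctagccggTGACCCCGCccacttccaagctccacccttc
Psmg4, chaperone of the core, chr13:34162904-34162963, plus strand: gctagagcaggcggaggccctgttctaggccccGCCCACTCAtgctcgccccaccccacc
In Psmg4 the match lies on the opposite strand. The AP-1 element, TGANTCA, was read within 250 bases before the start in 1 of the 38 genes, Psmd9, which is 2.63%, against 6.87% of all genes. Within 60 bases it was read in 0 of the 38, against 1.43% of all genes. The CCAAT box, CCAAT on either strand, was read in 34.2% of the 38 genes and 34.5% of all genes over 250 bases, and in 18.4% and 11.3% over 60 bases. In the printed stretches no match of the antioxidant element overlaps a CCAAT match. The presence or absence of these letters is a description of the sequence and says nothing of binding.

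The 46 genes together accounted for 0.586% to 0.673% of the counts, depending on the library. Levels of core and regulatory genes per length of transcript differed from gene to gene. The ratio of the highest to the lowest was 19.6 in the alpha ring and 4.13 in the beta ring. It was 3.62 in the base ATPases, 1.37 in the other base subunits and 3.51 in the lid. The median CPM per kilobase, averaged over the 8 libraries, was 118 for the 7 alpha ring genes and 167 for the 7 beta ring genes. It was 120 for the 6 base ATPases, 130 for the 3 other base subunits and 85.0 for the 8 lid subunits. Psma3 was the lowest at 9.29 CPM per kilobase and Psmc2, an ATPase of the base, the highest at 226. A pseudogene at least 95% identical over at least 200 bases was found for 8 of these 31 genes, namely Psma3, Psma4, Psma5, Psmb3, Psmb5, Psmc1, Psmd2 and Psmd11. Those 8 had a median of 52.9 CPM per kilobase (9.29 to 130), against 146 (62.5 to 226) for the 23 others. The sources used here do not say how reads that map to several places were counted, and the part of pseudogenes in these levels was not tested. The levels of the 8 are therefore uncertain.

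**Figure D1:**
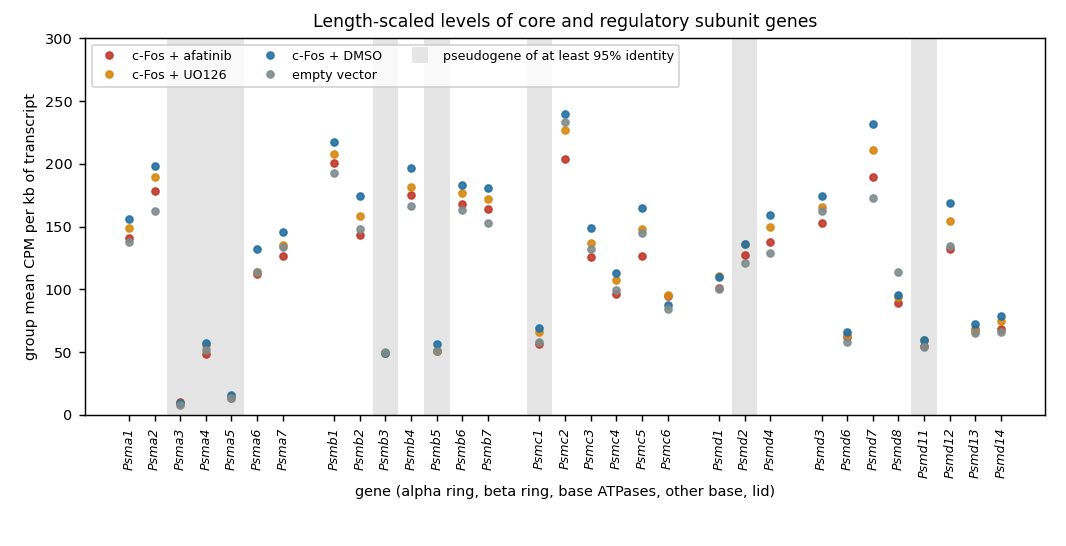
Length-scaled level (CPM per kilobase of transcript, group mean of 2 libraries) of the 31 core and regulatory genes in c-Fos cells with afatinib, UO126 or DMSO and in empty-vector cells; grey bands mark genes with a pseudogene at least 95% identical. The banded genes have a median of 52.9 CPM per kilobase and the others 146.

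With c-Fos and DMSO, proteasome genes were mostly higher than in empty-vector cells, by small amounts. A gene was called where its edgeR quasi-likelihood p-value, adjusted by the Benjamini-Hochberg method over all 12879 genes tested, was under 0.05. Of the 46 genes, 20 rose and 4 fell, which is 43.5% and 8.70%, against 21.5% and 20.7% of all genes tested. Among the 14 core genes 7 rose (Psma1, Psma2, Psma5, Psma6, Psmb2, Psmb4 and Psmb7) with a median log2 fold change of 0.20. Of the 17 regulatory genes, 9 rose and 1 fell, with a median of 0.17. No core gene fell by edgeR, none at an unadjusted p under 0.05 and none by DESeq2. The median log2 fold change was 0.17 for the 46 genes and -0.01 for all genes tested. DESeq2 called 15 higher and 4 lower. The count of rises moved most with DMSO replicate 2: without it 5 of the 46 rose (Psma2, Psmd4, Psmd7, Psmd12 and Psmg3) and the median was 0.12. Without empty replicate 1 it was 8 and without empty replicate 2 it was 12, while without UO126 replicate 2 it was 31. None of the called genes changed sign in any of the 14 alternative fits.

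With afatinib, proteasome genes were mostly lower than with DMSO. The comparison with empty-vector cells uses the same DMSO libraries, so these comparisons are not independent. Of the 46 genes, 3 rose and 21 fell, which is 6.52% and 45.7%, against 21.2% and 21.5% of all genes tested. Among the 14 core genes 5 fell (Psma4, Psma5, Psma6, Psma7 and Psmb2) and 10 of the 17 regulatory genes, among them 5 of the 6 base ATPases. The median log2 fold change was -0.15 for the core, -0.21 for the regulatory genes and -0.00028 for all genes tested. No core or regulatory gene rose by edgeR, none at an unadjusted p under 0.05 and none by DESeq2, and DESeq2 called 18 of the 46 genes lower. Without DMSO replicate 2, 5 of the 46 genes fell (Psmc5, Psmd12, Psmg2, Psmg3 and Psme3), and the median over the 46 moved to -0.12 while that of all genes was 0.02. Without afatinib replicate 2, 8 fell, and without afatinib replicate 1, 14 fell.

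With UO126 few proteasome genes passed the test. The UO126 duplicates also differed more from each other than those of any other group. A chi-square between duplicates, per degree of freedom over genes, was 25.1 with UO126, 9.17 with afatinib, 8.6 with DMSO and 4.85 in empty-vector cells. The part of this spread in the calls was not tested. Of the 46 genes, 2 rose and 4 fell against DMSO, which is 4.35% and 8.70%, against 13.9% and 14.7% of all genes tested. All 14 core genes had a negative log2 fold change, with a median of -0.09, but only Psma6, an alpha ring subunit, was called, at -0.22 ± 0.069 (SE, edgeR adjusted p = 0.0313). Of the 17 regulatory genes, 14 had a negative log2 fold change. None of the 17 was called by edgeR, 1 had an unadjusted p under 0.05 and none was called by DESeq2. Without DMSO replicate 2, 1 gene rose and 1 fell, and Psma6 was not among them. In afatinib against UO126 cells, set side by side directly, 3 of the 46 genes fell (Psmc1, Psmd12 and Psmg3) and none rose, which is 6.52% and 0%, against 7.14% of all genes in each direction. That share is near the background. By unadjusted p under 0.05, 1 gene was higher and 12 were lower, and DESeq2 called none higher and 1 lower. Without afatinib replicate 2 none of the 46 was called lower.

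**Figure D2:**
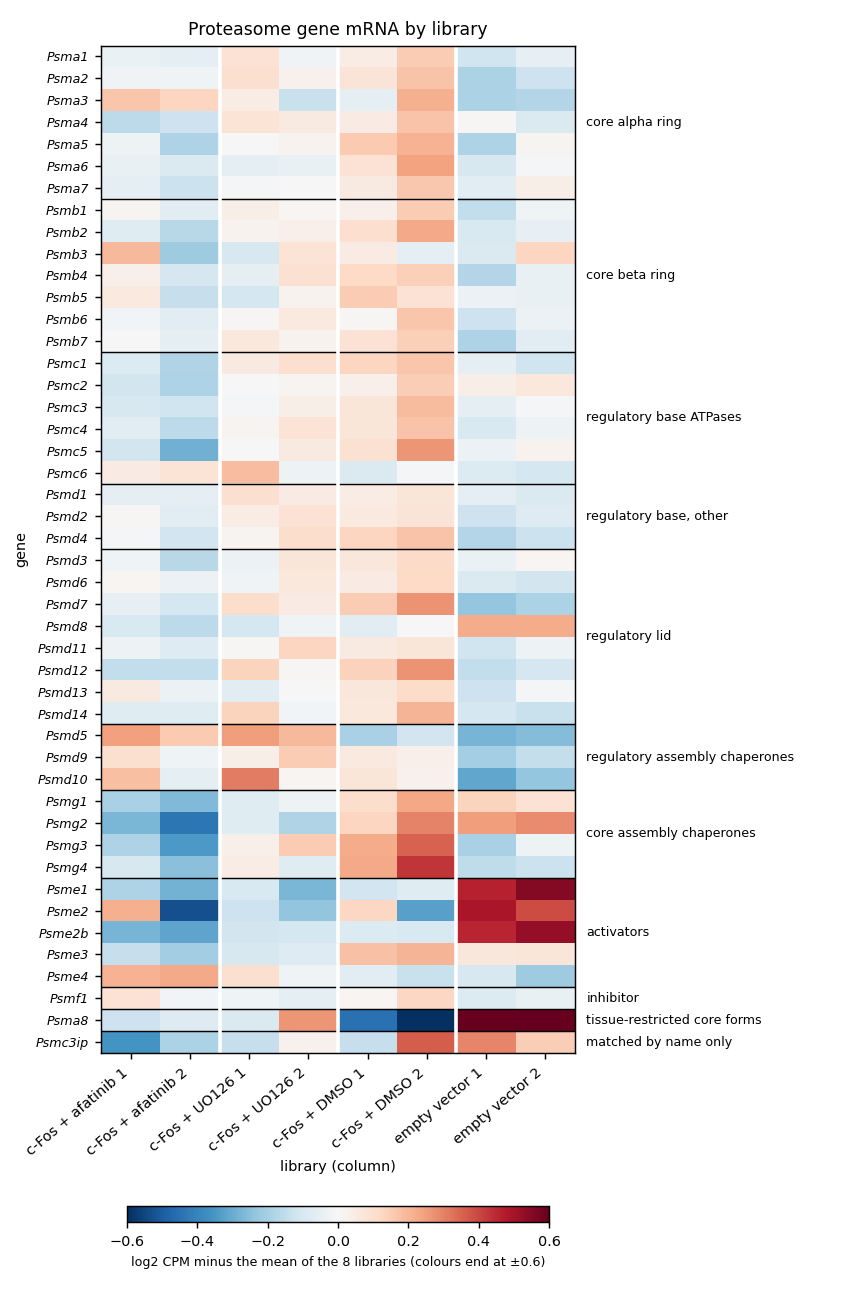
Level of each of the 46 genes in each of the 8 libraries, as the log2 difference in CPM from the mean of the gene over the libraries (colours end at 0.6), with libraries in the columns (afatinib, UO126, DMSO, empty vector) and genes in the rows by role. Most core and regulatory rows are highest in the DMSO columns, above all DMSO replicate 2.

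**Figure D3:**
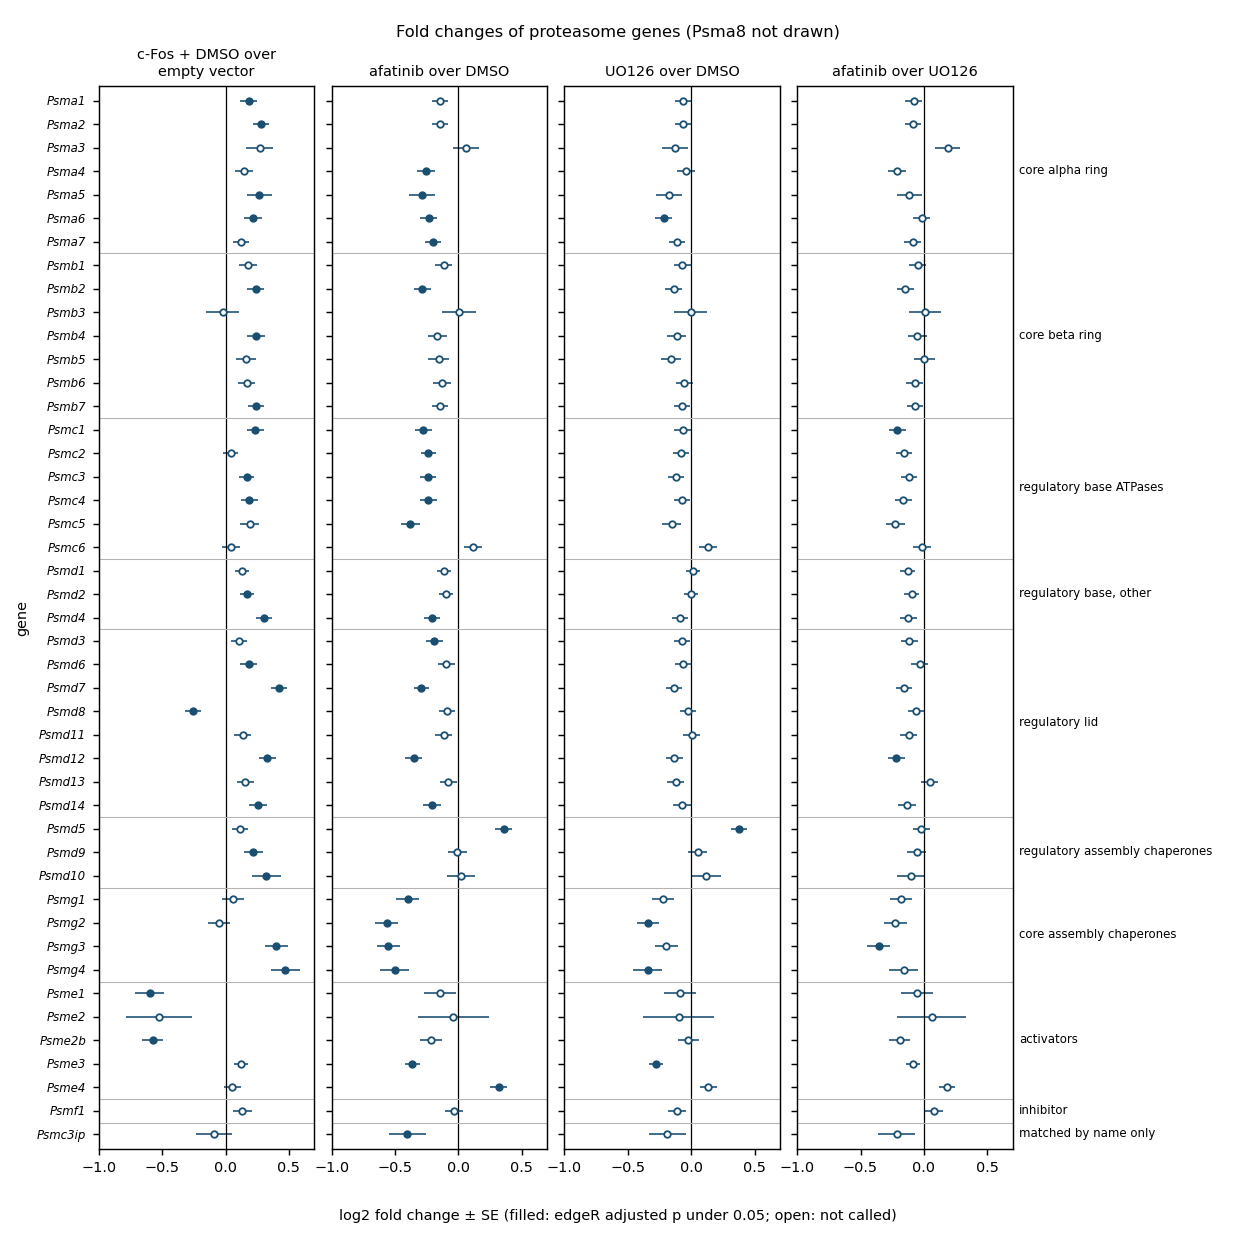
Log2 fold change with its SE for 45 genes (Psma8, which is off the scale, is not drawn) in each of the 4 comparisons, with the genes called at an edgeR adjusted p under 0.05 marked. Of all 46, 21 were called lower with afatinib, 4 were called lower with UO126, and 20 were called higher in DMSO against empty-vector cells.

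Summed over the 14 core genes, the level was 1688 and 1608 CPM with afatinib, 1731 and 1732 with UO126, 1785 and 1911 with DMSO, and 1565 and 1663 in empty-vector cells. Over the 17 regulatory genes it was 3437 and 3287 CPM with afatinib, 3663 and 3686 with UO126, 3738 and 3950 with DMSO, and 3388 and 3461 in empty-vector cells. For both sums the DMSO libraries were the highest in scaled CPM and apart from every other library. Before scaling, all kept proteasome genes together held 0.629% and 0.673% of the counts with DMSO, and 0.642% and 0.636% with UO126. DMSO replicate 1 was thus below both UO126 libraries in that share. The share was 0.606% and 0.586% with afatinib, and 0.587% and 0.614% in empty-vector cells, below both DMSO libraries. The part of the scaling in the margin of both sums over UO126 was not tested. The afatinib and empty-vector libraries overlapped for both sums.

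The catalytic subunit genes of the core moved little. Psmb5, with the chymotrypsin-like site, had 47.1 and 41.2 CPM with afatinib, 42.1 and 45.9 with UO126, 50.3 and 48.1 with DMSO, and 44.2 and 43.8 in empty-vector cells. Psmb6, with the caspase-like site, had 175 and 170 CPM with afatinib, 178 and 185 with UO126, 178 and 199 with DMSO, and 163 and 173 in empty-vector cells. Psmb7, with the trypsin-like site, had 160 and 154 CPM with afatinib, 167 and 163 with UO126, 170 and 177 with DMSO, and 141 and 153 in empty-vector cells. For each of the 3 genes both DMSO libraries were above both empty-vector libraries and above both afatinib libraries. Psmb7 alone of the 3 was called, in DMSO against empty-vector cells, where it rose by 0.24 ± 0.065 (edgeR adjusted p = 0.00891). That call ended without DMSO replicate 2 (adjusted p = 0.078) and without empty replicate 1 (adjusted p = 0.0825). Psmb5 and Psmb6 had log2 fold changes of 0.16 ± 0.082 and 0.17 ± 0.068 there, and neither passed the test in any of the 4 comparisons. The beta ring gene Psmb3, whose promoter is printed above, had log2 fold changes close to 0 throughout. Pseudogenes make the counts of both Psmb3 and Psmb5 uncertain. Among the alpha ring genes, Psma2 had 179 and 191 CPM with DMSO, against 149 and 156 in empty-vector cells. It rose by 0.28 ± 0.063 on the log2 scale (edgeR adjusted p = 0.00278) and was called in all 14 alternatives. With afatinib Psma2 had 167 and 167 CPM, below both DMSO libraries, at -0.15 ± 0.063 and an edgeR adjusted p of 0.0749.

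In the regulatory particle, 4 of the 8 lid genes rose and 1 fell in DMSO against empty-vector cells, and 4 fell with afatinib against DMSO. Of the 6 base ATPase genes, 3 rose in the first of these comparisons and 5 fell in the second. Of all genes tested, 21.5% rose and 20.7% fell in the first, and 21.5% fell in the second. With so few genes a role's share moves widely with 1 call. Psmd7, a lid subunit that pairs with the deubiquitinase, had 307 and 295 CPM with afatinib, 342 and 329 with UO126, 353 and 383 with DMSO, and 271 and 279 in empty-vector cells. The DMSO libraries were above all others and the empty-vector libraries below all others. The log2 fold change of Psmd7 was 0.42 ± 0.062 in DMSO against empty-vector cells (edgeR adjusted p = 0.000112), called in all 14 alternatives. It was -0.29 ± 0.062 in afatinib against DMSO (edgeR adjusted p = 0.00188), and that call ended without DMSO replicate 2 (adjusted p = 0.0577). Psmd12, another lid subunit, had 226 and 226 CPM with afatinib, 275 and 252 with UO126, 276 and 302 with DMSO, and 226 and 234 in empty-vector cells. The afatinib and empty-vector libraries lay together, and both stood below every UO126 and DMSO library. Psmd12 rose by 0.33 ± 0.067 in DMSO against empty-vector cells (edgeR adjusted p = 0.00142) and fell by 0.35 ± 0.067 with afatinib against DMSO (edgeR adjusted p = 0.000853), both on the log2 scale and both called in all 14 alternatives. In afatinib against UO126 its log2 fold change was -0.22 (edgeR adjusted p = 0.043), a call lost in 7 of the 8 omissions of a library, with adjusted p up to 0.197 without afatinib replicate 2.

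Psmd14, the ubiquitin-removing enzyme of the lid, had 104 and 104 CPM with afatinib, 120 and 108 with UO126, 114 and 126 with DMSO, and 102 and 99.8 in empty-vector cells. Its DMSO libraries were above the afatinib and empty-vector ones and overlapped with UO126. The log2 fold change was 0.25 ± 0.072 in DMSO against empty-vector cells (edgeR adjusted p = 0.0119) and -0.21 in afatinib against DMSO (edgeR adjusted p = 0.032). Without DMSO replicate 2 neither call held, with adjusted p of 0.138 for the first and 0.368 for the second. The first also ended without empty replicate 2 (adjusted p = 0.0728), and the second without either afatinib library (adjusted p = 0.151 and 0.164) or either empty-vector library (adjusted p = 0.0558 and 0.0761). Psmd8, a further lid subunit, was the only core or regulatory gene that was called lower in DMSO against empty-vector cells. It had 138 and 132 CPM with afatinib, 137 and 145 with UO126, 140 and 147 with DMSO, and 171 and 172 in empty-vector cells, so that the empty-vector libraries stood above the other 6. The log2 fold change of Psmd8 was -0.26 ± 0.063 in DMSO against empty-vector cells (edgeR adjusted p = 0.0047), and the adjusted p was 0.0759 without DMSO replicate 1 and 0.0525 without empty replicate 1.

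In the base, Psmd4, a receptor for ubiquitin chains, had 209 and 215 CPM with DMSO, against 169 and 175 in empty-vector cells. It rose by 0.30 ± 0.064 on the log2 scale (edgeR adjusted p = 0.00188), a call that held in all 14 alternatives. With afatinib Psmd4 had 191 and 177 CPM and was called lower against DMSO, at -0.21 ± 0.064 (edgeR adjusted p = 0.0176). That log2 fold change was -0.13 without afatinib replicate 2 and -0.17 without DMSO replicate 2. Psmc5, an ATPase, had 170 and 151 CPM with afatinib, 184 and 191 with UO126, 196 and 221 with DMSO, and 179 and 187 in empty-vector cells. Both afatinib libraries were the lowest of the 8. Psmc5 fell by 0.38 ± 0.076 with afatinib against DMSO (edgeR adjusted p = 0.00129, called in all 14 alternatives) and had a log2 fold change of 0.19 in DMSO against empty-vector cells (edgeR adjusted p = 0.0597). Psmc1, another ATPase, had 87.0 and 81.2 CPM with afatinib, 95.5 and 98.9 with UO126, 101 and 103 with DMSO, and 88.4 and 84.7 in empty-vector cells. The afatinib and empty-vector libraries of Psmc1 overlapped, and both lay below the rest. Pseudogenes make the counts of Psmc1 uncertain as well. It fell by 0.28 with afatinib against DMSO (edgeR adjusted p = 0.00412; 0.0608 without DMSO replicate 2 and 0.0871 without afatinib replicate 2). The log2 fold change of Psmc1 in afatinib against UO126 was -0.21 (edgeR adjusted p = 0.0487), a call lost in 7 of the 8 omissions, with an adjusted p of 0.344 without afatinib replicate 2. Psmc6 was the ATPase gene that was not called in any comparison, with 145 and 148 CPM with afatinib against 132 and 139 with DMSO.

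Among the 46 genes, the chaperones that build the core showed the largest median fall with an inhibitor of any role with more than 1 gene. Psmg1 and Psmg2 encode one chaperone pair and Psmg3 and Psmg4 another, and both pairs act on the alpha ring. All 4 fell with afatinib against DMSO, with a median log2 fold change of -0.53, and DESeq2 called the same number. With UO126, 2 of the 4 fell, with a median of -0.28, and DESeq2 called 1. Of all genes tested, 21.5% fell with afatinib and 14.7% with UO126, and a share of 4 genes moves widely with 1 call.

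Psmg2 had 30.0 and 26.8 CPM with afatinib, 34.4 and 31.9 with UO126, 39.6 and 44.5 with DMSO, and 43.1 and 44.1 in empty-vector cells. The libraries with either inhibitor were below all DMSO and empty-vector libraries, which overlapped. Psmg2 fell by 0.57 ± 0.088 with afatinib against DMSO (edgeR adjusted p = 0.000176, called in all 14 alternatives). It fell by 0.34 ± 0.086 with UO126 against DMSO (edgeR adjusted p = 0.0096), which ended without DMSO replicate 2 (adjusted p = 0.145). Its partner Psmg1 had 19.4 and 18.5 CPM with afatinib, 21.2 and 21.8 with UO126, 23.9 and 26.1 with DMSO, and 24.4 and 23.6 in empty-vector cells, again with the inhibitor libraries below the rest. Psmg1 fell by 0.40 ± 0.088 with afatinib against DMSO (edgeR adjusted p = 0.0024, and 0.051 without DMSO replicate 2).

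Psmg3 had 33.8 and 30.2 CPM with afatinib, 39.2 and 42.7 with UO126, 44.7 and 49.1 with DMSO, and 33.5 and 37.6 in empty-vector cells. Unlike for the first pair, the DMSO libraries were above the empty-vector ones. Psmg3 rose by 0.40 ± 0.090 in DMSO against empty-vector cells (edgeR adjusted p = 0.00281) and fell by 0.55 ± 0.091 with afatinib against DMSO (edgeR adjusted p = 0.000277), both called in all 14 alternatives. In afatinib against UO126 it fell by 0.36 ± 0.090 (edgeR adjusted p = 0.0182), which ended without afatinib replicate 2 (adjusted p = 0.197). Psmg4 had 10.6 and 9.53 CPM with afatinib, 11.7 and 10.8 with UO126, 13.3 and 15.3 with DMSO, and 10.2 and 10.4 in empty-vector cells. The DMSO libraries were again above all others. Psmg4 rose by 0.47 ± 0.11 in DMSO against empty-vector cells (edgeR adjusted p = 0.00451) and fell by 0.50 ± 0.11 with afatinib against DMSO (edgeR adjusted p = 0.00294). Without DMSO replicate 2 the adjusted p was 0.0659 for the first and 0.062 for the second. The fall of Psmg4 with UO126, of 0.34 (edgeR adjusted p = 0.0344), was lost without DMSO replicate 2 (adjusted p = 0.314), UO126 replicate 2 (adjusted p = 0.115) or either empty-vector library (adjusted p = 0.0555 and 0.0587).

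Of the 3 chaperone genes of the regulatory particle, Psmd5 was the one called with an inhibitor. It had 131 and 123 CPM with afatinib, 131 and 126 with UO126, 96.2 and 102 with DMSO, and 90.8 and 92.0 in empty-vector cells. Both inhibitors set it above every library without one. Psmd5 rose by 0.36 ± 0.065 with afatinib (edgeR adjusted p = 0.000619) and by 0.38 ± 0.065 with UO126 (edgeR adjusted p = 0.000804), both against DMSO and both called in all 14 alternatives. The difference of Psmd5 between afatinib and UO126 was -0.02 and was not called. Psmd9 and Psmd10 rose in DMSO against empty-vector cells by 0.22 (edgeR adjusted p = 0.0325) and 0.32 (edgeR adjusted p = 0.038), while DESeq2 called neither, and neither was called with an inhibitor.

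**Figure D4:**
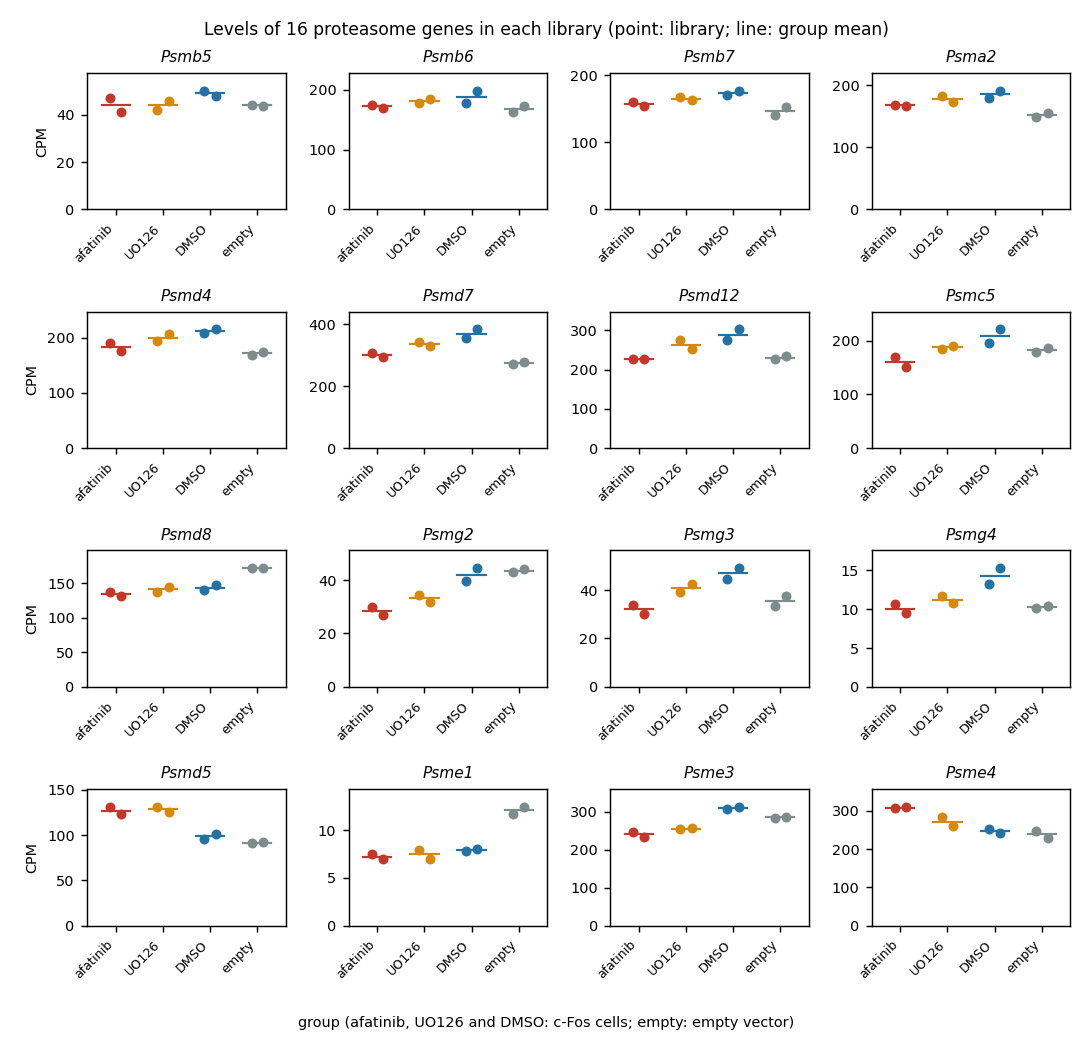
CPM in each of the 8 libraries, with the group mean as a bar, for 16 proteasome genes, in c-Fos cells with afatinib, UO126 or DMSO and in empty-vector cells. Psmd5 is above every DMSO and empty-vector library with either inhibitor, and Psmg2 is below them.

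The activators are rings that cap the core and open it without ubiquitin. Psme1 and Psme2 form the interferon-induced cap, Psme3 a nuclear cap, and Psme4 a single-chain cap of the nucleus. Psme1 had 7.45 and 6.97 CPM with afatinib, 7.95 and 7.01 with UO126, 7.84 and 8.07 with DMSO, and 11.7 and 12.4 in empty-vector cells. The entry Psme2b had 17.2 and 16.8 CPM with afatinib, 19.4 and 19.5 with UO126, 19.8 and 19.7 with DMSO, and 28.7 and 30.1 in empty-vector cells. For both, the empty-vector libraries stood above all others. Psme1 fell by 0.60 ± 0.12 on the log2 scale in DMSO against empty-vector cells (edgeR adjusted p = 0.00106) and Psme2b by 0.58 ± 0.083 (edgeR adjusted p = 9.58e-05), both called in all 14 alternatives. Psme2b and Psme2 are 99.4% identical over 794 bases, so their counts are uncertain. Psme2 had 2.14 and 1.28 CPM with afatinib, 1.70 and 1.57 with UO126, 2.01 and 1.48 with DMSO, and 2.60 and 2.43 in empty-vector cells. Its log2 fold change in DMSO against empty-vector cells, -0.52 ± 0.26, was not called (edgeR adjusted p = 0.125).

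Psme3 and Psme4 differed with the inhibitors. Psme3 had 247 and 235 CPM with afatinib, 254 and 257 with UO126, 307 and 313 with DMSO, and 284 and 286 in empty-vector cells. All 4 libraries with an inhibitor were below the 4 without. Psme3 fell by 0.36 ± 0.058 with afatinib (edgeR adjusted p = 0.000212) and by 0.28 ± 0.058 with UO126 (edgeR adjusted p = 0.00292), both against DMSO and both called in all 14 alternatives. Psme4 had 307 and 311 CPM with afatinib, 284 and 261 with UO126, 254 and 242 with DMSO, and 249 and 229 in empty-vector cells. The afatinib libraries were the highest of the 8, and UO126 was between them and DMSO. Psme4 rose by 0.32 ± 0.066 with afatinib against DMSO (edgeR adjusted p = 0.00163, called in all 14 alternatives). With UO126 against DMSO its log2 fold change was 0.14, which was not called (edgeR adjusted p = 0.143). The afatinib and UO126 values of Psme4 differed by 0.18, not called either (edgeR adjusted p = 0.0834). Psmf1, which binds and inhibits the core in vitro, was not called in any comparison.

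Psma8, the testis form of an alpha subunit, was scarce. It had 2.04 and 2.11 CPM with afatinib, 2.10 and 2.68 with UO126, 1.63 and 0.682 with DMSO, and 4.80 and 4.66 in empty-vector cells. The empty-vector libraries were above all others, and the pair of DMSO libraries was wide apart. Psma8 fell by 2.02 ± 0.27 on the log2 scale in DMSO against empty-vector cells (edgeR adjusted p = 5.88e-05), a call that held in all 8 omissions of a library. It was called higher with afatinib against DMSO at 0.83 ± 0.32 (edgeR adjusted p = 0.0482) and with UO126 against DMSO at 1.03 ± 0.31 (edgeR adjusted p = 0.0226). Without DMSO replicate 2 the adjusted p was 0.388 for afatinib and 0.23 for UO126. The call with afatinib also ended without either afatinib library (adjusted p = 0.106 and 0.139) or either empty-vector library (adjusted p = 0.0634 and 0.0557), and that with UO126 without UO126 replicate 2 (adjusted p = 0.0705). Psmc3ip, the recombination protein gene, had 14.9 and 16.7 CPM with afatinib, 17.3 and 19.4 with UO126, 17.4 and 24.5 with DMSO, and 23.4 and 21.2 in empty-vector cells. Its fall with afatinib against DMSO, of 0.40 ± 0.15 (edgeR adjusted p = 0.0473), ended without DMSO replicate 2 (adjusted p = 0.588) and in 4 of the other 7 omissions, those of an afatinib or empty-vector library (adjusted p = 0.0671 to 0.251).

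Among genes around the proteasome, the immunoproteasome genes Psmb8 and Psmb9 were close to silent, while Psmb10 was read in every library. Psmb8 had at most 1 count and Psmb9 at most 2 counts in a library. Psmb10, a catalytic subunit of the immunoproteasome, had 7.99 and 6.60 CPM with afatinib, 7.77 and 7.38 with UO126, 10.1 and 12.6 with DMSO, and 10.1 and 10.5 in empty-vector cells. The libraries with an inhibitor were below all others. Psmb10 fell by 0.64 ± 0.14 with afatinib (edgeR adjusted p = 0.00211) and by 0.58 ± 0.14 with UO126 (edgeR adjusted p = 0.00609), both against DMSO. Without DMSO replicate 2 the adjusted p was 0.0527 with afatinib and 0.113 with UO126.

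Of 7 tested genes for proteasome subunits and associated proteins outside the symbol pattern, 1 rose in DMSO against empty-vector cells. With afatinib against DMSO 1 rose and 3 fell, and with UO126 2 fell. The share higher in DMSO against empty-vector cells was 14.3%, against 21.5% of all genes tested. With afatinib 14.3% rose and 42.9% fell, against 21.2% and 21.5%, and with UO126 28.6% fell, against 14.7%. Pomp, the maturation factor of the core, had 104 and 95.5 CPM with afatinib, 108 and 102 with UO126, 120 and 135 with DMSO, and 109 and 118 in empty-vector cells. The DMSO libraries were above all others. Pomp fell by 0.36 ± 0.077 with afatinib (edgeR adjusted p = 0.00214) and by 0.28 with UO126 (edgeR adjusted p = 0.0153), and without DMSO replicate 2 the adjusted p was 0.0612 and 0.221 in the same order. Uchl5, a deubiquitinase of the regulatory particle, had 77.3 and 76.8 CPM with afatinib, 89.8 and 81.0 with UO126, 98.5 and 104 with DMSO, and 71.7 and 76.1 in empty-vector cells. It stood highest with DMSO. Uchl5 rose by 0.45 ± 0.071 in DMSO against empty-vector cells (edgeR adjusted p = 0.000204) and fell by 0.39 with afatinib against DMSO (edgeR adjusted p = 0.000619), both called in all 14 alternatives. Akirin2, which takes proteasomes into the nucleus, had 132 and 131 CPM with afatinib, 115 and 111 with UO126, 109 and 109 with DMSO, and 110 and 110 in empty-vector cells. It rose by 0.27 with afatinib against DMSO (edgeR adjusted p = 0.00239, called in all 14 alternatives).

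The gene for the transcription factor Nfe2l1 had its lowest level with DMSO, where most subunit genes had their highest. Nfe2l1 had 744 and 696 CPM with afatinib, 596 and 600 with UO126, 447 and 436 with DMSO, and 596 and 591 in empty-vector cells. The afatinib libraries were the highest, and those of UO126 and empty-vector cells overlapped. Nfe2l1 fell by 0.43 ± 0.058 in DMSO against empty-vector cells (edgeR adjusted p = 5.42e-05) and rose by 0.71 ± 0.058 with afatinib (edgeR adjusted p = 6.81e-07) and by 0.44 ± 0.058 with UO126 (edgeR adjusted p = 0.000106), both against DMSO. All 3 calls held in all 14 alternatives. In afatinib against UO126 it rose by 0.27 (edgeR adjusted p = 0.00751), which ended without afatinib replicate 1 (adjusted p = 0.0793). These comparisons share their DMSO libraries with those of the subunit genes, and protein was not measured.

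Of the 9 genes of Nfe2l1 and its activation, 3 rose and 3 fell in DMSO against empty-vector cells, 5 rose and 1 fell with afatinib against DMSO, and 4 rose and 1 fell with UO126 against DMSO. These are 33.3% and 33.3%, 55.6% and 11.1%, and 44.4% and 11.1%, against 21.5% and 20.7%, 21.2% and 21.5%, and 13.9% and 14.7% of all genes tested in the same order. Ngly1, the deglycosylase that Nfe2l1 needs, rose by 0.50 with afatinib against DMSO (edgeR adjusted p = 0.00164, called in all 14 alternatives). Of the same list, Ddi2 rose by 0.27 with afatinib against DMSO (edgeR adjusted p = 0.0255), while with UO126 it was at -0.07 and not called. The log2 fold change of Ddi2 with afatinib ranged from 0.20 to 0.37 over the omissions of a library. Its call ended without either afatinib library or DMSO replicate 2. Vcp was at -0.15 with afatinib against DMSO, which was not called (edgeR adjusted p = 0.0531). In afatinib against UO126 Vcp fell by 0.24 (edgeR adjusted p = 0.0149). Nfe2l2, the related factor of the oxidative stress response, had 79.6 and 80.4 CPM with afatinib, 86.5 and 76.5 with UO126, 62.9 and 64.8 with DMSO, and 66.5 and 62.0 in empty-vector cells. Every library with an inhibitor was above every library without one. Nfe2l2 rose by 0.33 with afatinib (edgeR adjusted p = 0.00322) and by 0.35 with UO126 (edgeR adjusted p = 0.00324), both called in all 14 alternatives. Nfe2l3, another relative, was scarce. It had 4.48 and 4.63 CPM with afatinib and 3.13 and 2.86 with UO126. With DMSO it had 1.14 and 2.27 CPM, and in empty-vector cells 6.06 and 5.92. Its log2 fold change was -1.82 in DMSO against empty-vector cells (edgeR adjusted p = 2.63e-05). With afatinib against DMSO it was 1.42 (edgeR adjusted p = 0.000309). With UO126 against DMSO it was 0.82 (edgeR adjusted p = 0.0267), and 0.40 without DMSO replicate 1. The DESeq2 Wald test and the fit of only the 4 libraries compared did not make that call. Maff, a small Maf partner, went the other way, with 1.41 in DMSO against empty-vector cells (edgeR adjusted p = 2.03e-07), -2.70 with afatinib (edgeR adjusted p = 4.25e-09) and -1.65 with UO126 (edgeR adjusted p = 2.65e-07). The other small Maf genes, Mafg and Mafk, also rose in DMSO against empty-vector cells, by 0.38 (edgeR adjusted p = 0.000469) and 0.62 (edgeR adjusted p = 1.11e-05). With afatinib against DMSO they had log2 fold changes of 0.02 (edgeR adjusted p = 0.869) and 0.16 (edgeR adjusted p = 0.0768), so neither was called. Apart from that of Nfe2l3 with UO126, the calls of Nfe2l3, Maff, Mafg and Mafk given here held in all 14 alternatives.

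**Figure D5:**
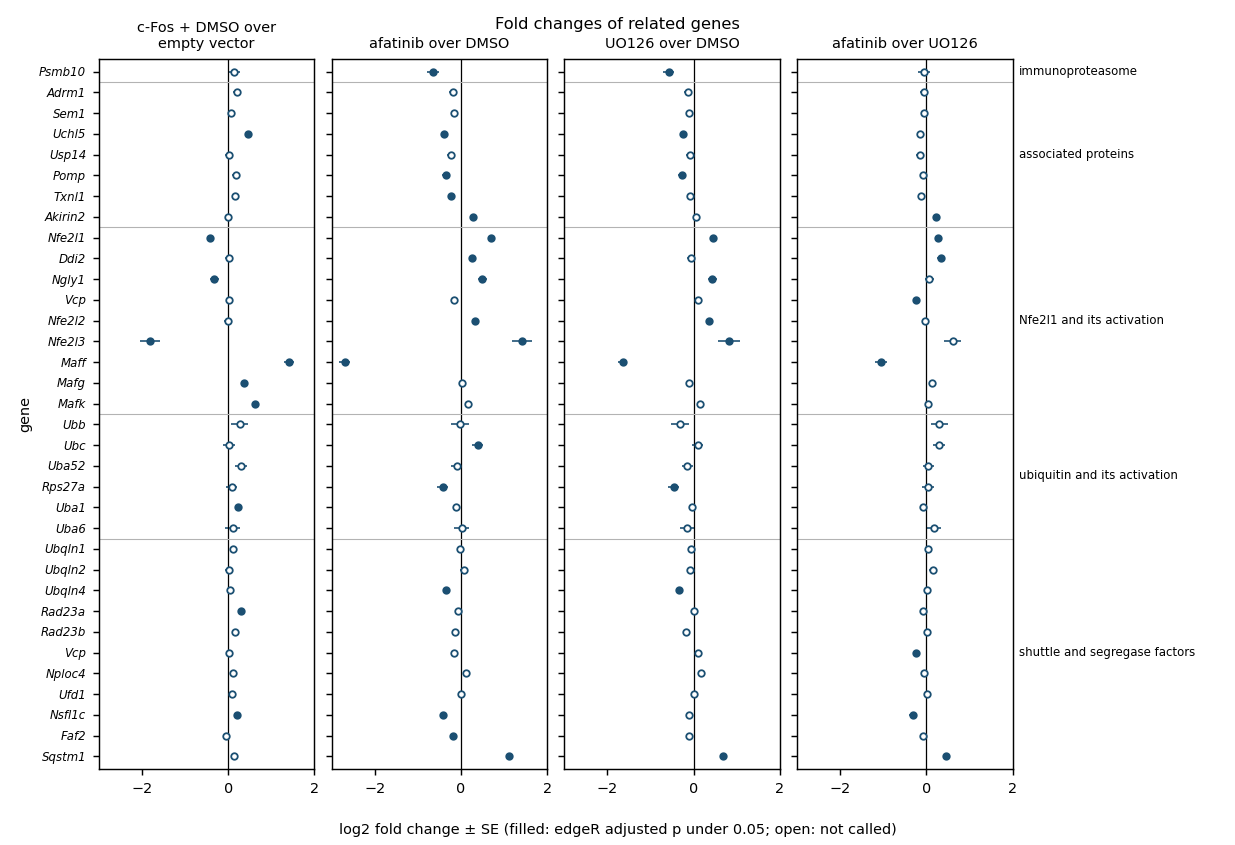
Log2 fold change with its SE for tested genes outside the 46, by list, in each of the 4 comparisons. Nfe2l1 and Nfe2l3 lie below 0 in DMSO against empty-vector cells and above 0 with afatinib, while Maff lies on the other side in each.

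Of 6 genes for ubiquitin and its activating enzymes, 1 rose in DMSO against empty-vector cells, 1 rose and 1 fell with afatinib against DMSO, and 1 fell with UO126 against DMSO, each of which is 16.7% of the list. Of 11 tested genes for factors that extract or deliver ubiquitinated proteins, 2 rose in DMSO against empty-vector cells, 1 rose and 3 fell with afatinib against DMSO, and 1 rose and 1 fell with UO126 against DMSO. These are 18.2% higher in DMSO against empty-vector cells, 9.09% higher and 27.3% lower with afatinib, and 9.09% in each direction with UO126. Over all genes tested the shares higher and lower were 21.5% and 20.7% in DMSO against empty-vector cells, 21.2% and 21.5% with afatinib, and 13.9% and 14.7% with UO126. With so few genes a list's share moves widely with 1 call. The rise with both inhibitors was that of Sqstm1, a receptor that takes ubiquitinated cargo to autophagy, with log2 fold changes of 1.12 with afatinib (edgeR adjusted p = 1.56e-08) and 0.67 with UO126 (edgeR adjusted p = 3.22e-06). Sqstm1 was also higher with afatinib than with UO126, by 0.44 (edgeR adjusted p = 0.000313). Ubqln4, a shuttle protein gene, fell by 0.33 with afatinib (edgeR adjusted p = 0.00117) and by 0.34 with UO126 (edgeR adjusted p = 0.00204). These calls of Sqstm1 and Ubqln4 held in all 14 alternatives.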

How the data were processed

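Total RNA from an RNeasy column went into Illumina TruSeq RNA libraries, per the labels' protocols; this kit does not mark strand. Reads were processed with TopHat and then HOMER per the labels of the series design, and the submitters' processing notes also name DESeq2 and build mm9; versions are not given in the sources used here. The values deposited by the authors are estimated counts per gene, not normalized, many ending in 0.5. They were rounded, 26 entries with symbols turned into dates were left out, and edgeR 4.0.16 in R 4.3.3 was run on the 12879 genes that passed filterByExpr (minimum count 10, total 15). TMM scaling and a robust quasi-likelihood fit of all 8 libraries left 4 residual degrees of freedom (common biological coefficient of variation 0.0596). Tests were two-sided; SEs of log2 fold changes came from the F statistic. The fit was tested on simulated data. Precision is limited by 2 libraries a group.

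Alternatives were DESeq2 1.42.0 (size factors alone, and its Wald test), no filter, at least 5 CPM in 2 libraries, the 4 libraries compared alone, the replicate number as a block, and omission of each library, 14 in all. Values in every library are given for catalytic subunits, Psmd14, the activators, Psmc3ip, Pomp, Psmb10, Nfe2l1, Nfe2l2, and the 3 largest called rises and falls of each comparison with at least 5 CPM and no overlap. Psma2, Psmd4, Psmc5, Psmg1, Psma8, Uchl5, Akirin2 and Nfe2l3 were added after their values were seen. Copies were searched with BLAST among GENCODE M21 transcripts. The genes and lists were chosen with earlier results of these data known. Of the listed related genes, Paaf1 and Ecm29 were not analysed here, and Sem1 and Ufd1 stand under these names.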

Additional observations from a re-analysis of the deposited data

How the results depend on the processing

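Leaving out 1 library at a time moved the counts of called proteasome genes most. In DMSO against empty-vector cells the number higher ranged from 5 to 31 and the number lower from 3 to 4. In afatinib against DMSO it ranged from 2 to 3 higher and from 5 to 22 lower, in UO126 against DMSO from 1 to 3 higher and from 1 to 5 lower, and in afatinib against UO126 from 0 to 1 higher and from 0 to 3 lower. The cause was not tested. The replicate block left 13 genes higher in DMSO against empty-vector cells, against 20 without it, 2 lower in UO126 against DMSO and 1 lower in afatinib against UO126. The sources used here do not say whether the replicate numbers pair the libraries. The replicate differences of 2 groups correlated across genes at -0.21 to 0.12, which cannot tell whether libraries of the same number shared a culture or a day. In UO126 against DMSO, the DESeq2 Wald test called 2 lower, the filter at 5 CPM 1 higher, and the fit of only the 4 libraries compared 1 higher and 2 lower. In afatinib against UO126, the DESeq2 size factors, the DESeq2 Wald test and the 4 libraries alone each gave 1 lower. The other counts stayed within 1.5 times. For 70 pairs of a gene given in the text and a comparison, each called in at least 1 fit, 869 of 977 values under an alternative kept their direction and side of the threshold, 94 lost the call, 13 gained one and 1 changed sign. In the last, Psmc3ip in UO126 against DMSO was -0.19, and with 1 library left out it ranged to -0.41 without DMSO replicate 1 (called) and 0.092 without DMSO replicate 2. Over the omissions the sign also differed in 38 of 184 pairs of a proteasome gene and a comparison and in 38 of 132 for the related genes, 0 of them called. With 2 libraries a group, the fit with a lone library assumes that it varies like the other groups.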
